A study of Mus musculus with 15 samples.

Results

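The genes described here are 32 that encode enzymes and carriers of the citric acid cycle, of the reactions that feed carbon into it or draw malate out of it, and of the shuttles that exchange its intermediates between mitochondria and cytosol. They were taken by name from the 55487 genes counted in each library, and all 32 were among the 20718 genes with enough counts to be tested. Transcripts were measured by RNA sequencing of left ventricle from male mice at 225 days. The 7 kidney disease mice carried a mutation of Col4a5, the gene for a chain of type IV collagen in the filtering membrane of the kidney. The 8 controls were wild-type littermates without that mutation, kept with the mutants on the same normal chow. The labels call the mutant allele both a knockdown and a knockout, place these mice at an advanced stage of kidney disease, and give no strain.

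The citric acid cycle runs in the mitochondrial matrix. It oxidises the acetyl groups made from fatty acids, ketone bodies, lactate and glucose, and passes their electrons to the respiratory chain. In the working heart, which relies mostly on fatty acids, the cycle is the main source of NADH. Intermediates that leak out are replaced by anaplerosis, the entry of carbon other than acetyl-CoA, chiefly as oxaloacetate from pyruvate or as succinyl-CoA from propionate. The malate-aspartate shuttle carries the electrons of cytosolic NADH into the matrix, and malic enzymes turn malate back into pyruvate while making NADPH or NADH.

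None of the 32 genes was called different between kidney disease and wild type. At a Benjamini-Hochberg adjusted p below 0.05 (edgeR quasi-likelihood test over all genes tested), 0 members were higher, where 0.811% of all genes tested were called higher, and 0 were lower, where 0.473% were called lower. At an unadjusted p below 0.05, 7 members were lower and 0 were higher. Without wild type 7 there were 11 lower, the others being Cs, Got2, Idh3g and Mdh2. The 7 were 21.9% of the members, where 5.55% of all genes tested were lower and 6.84% higher at that threshold. By DESeq2, 2 members were called lower (Pcx and Me3) and 0 higher, where that tool called 1.51% of all genes it tested lower and 2.17% higher. By limma-voom 0 members were called, where it called 0.454% of genes lower and 0.763% higher. The smallest p values belonged to genes of carbon entry, to malic enzymes and to the 2-oxoglutarate dehydrogenase complex: Pcx, Me3, Me1, Pccb, Ogdh, Pcca and Dlst. Changes are given below as log2 of kidney disease over wild type, so that a negative value is lower in kidney disease. Of the members, 27 had a change below 0 (84.4%, against 48.8% of all genes tested). Their median was -0.07, against 0.0042 over all genes tested. No member had every kidney disease library below, or above, every wild-type library, a pattern shown by 0.179% and 0.386% of all genes tested. The differences were small: 26 of the 32 had a 95% confidence interval that lay wholly within 0.3 of 0 on the log2 scale, and the bound farthest from 0, that of Slc25a1, was -0.59.

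**Figure D1:**
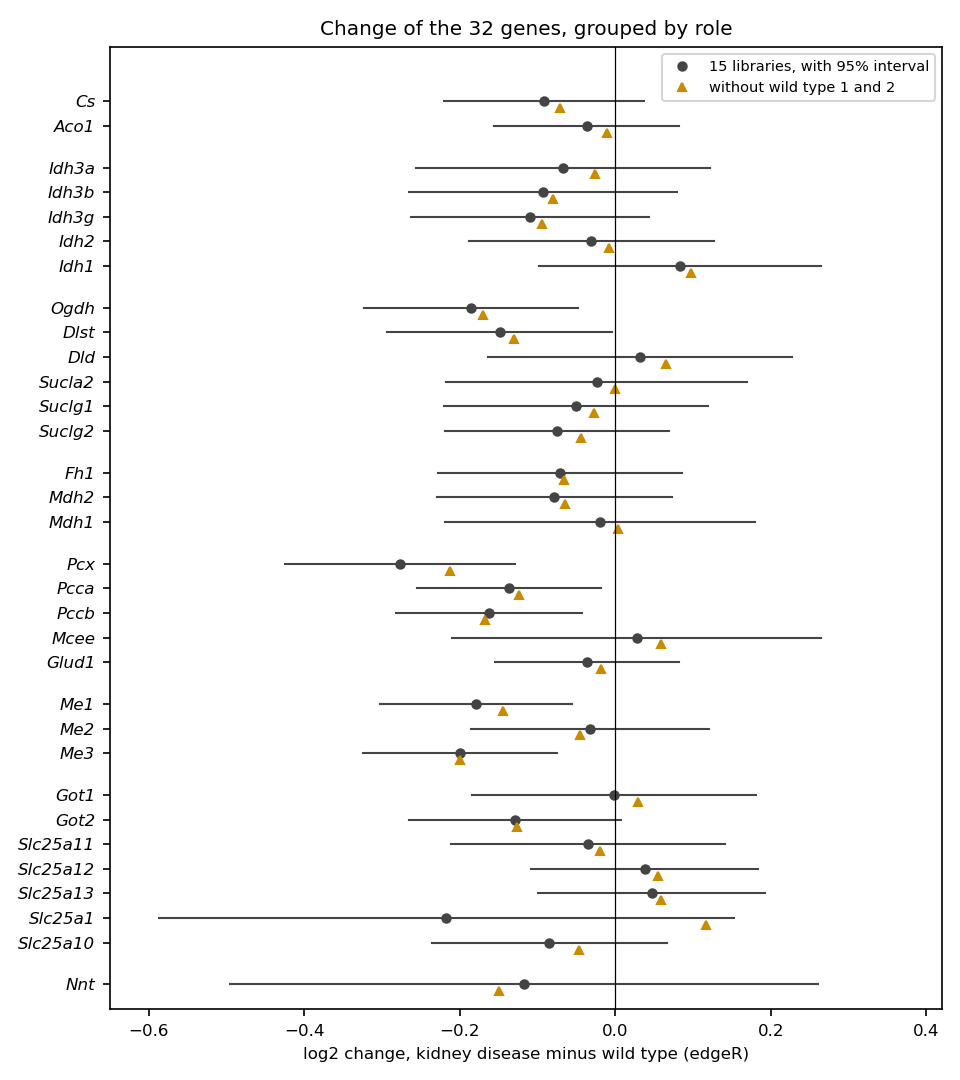
Log2 change, kidney disease minus wild type, of the 32 genes grouped by role, with the 95% confidence interval from all 15 libraries (circles and lines) and the value without wild type 1 and 2 (triangles), the libraries with adipocyte transcripts. The lines of 7 genes lie wholly below 0 and none lies wholly above. The triangles of Slc25a1 and Got1 are on the other side of 0 from their circles, that of Slc25a1 by the most. Those of Mdh1 (0.0031) and Sucla2 (8.17e-06) cannot be told from 0 on this scale.

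The 7 mutant libraries held 54263014 to 65519279 counts and the 8 controls 48748379 to 57962094, and members of the list took 1.39% to 1.63% of them. Col4a5 was at 9.19 to 16.2 CPM in the mutants and 50.4 to 65.7 CPM in the controls, lower in every kidney disease library. CPM is a count scaled to the size of its library, and all CPM values here use library sizes adjusted by the trimmed mean of M values (TMM). Cardiomyocyte markers summed to 70850 to 94470 CPM in wild type and 71120 to 80440 CPM in kidney disease, and 0 of 10 were called. Of the 10, 5 had a log2 change below 0, and the median was -0.01. Myh6 (-0.22), Actc1 (-0.30) and Ryr2 (-0.17) were lower at an unadjusted p below 0.05 (edgeR). Skeletal muscle markers summed to at most 3.54 CPM. The sums of 6 atrial cardiomyocyte markers spread widely inside both groups. Kidney disease libraries ran from 35.6 to 1793 CPM, controls from 39.8 to 1511 CPM. Of these markers 0 were called and 0 had a change below 0, with a median of 0.56. Whether this spread reflects atrial tissue in the samples was not tested. Of 8 macrophage markers, 6 were called higher in kidney disease, with sums of 343 to 484 CPM against 240 to 298 CPM, and 4 of 8 fibroblast and 5 of 6 B cell markers were called higher. Of 6 erythroid markers 0 were called, but all 6 had a change below 0 (median -0.62), with sums of 310 to 822 CPM in the mutants against 559 to 1076 CPM. The part of these cells in the values of the members was not tested. In a piece of tissue, fewer cells of a type and less RNA per cell cannot be told apart.

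Wild type 1 and 2 held adipocyte transcripts. The 10 adipocyte markers summed to 207 and 373 CPM in these libraries, to 41.9 to 52.5 CPM in the other 6 wild-type libraries and to 42.5 to 73.5 CPM in kidney disease. Ucp1, the uncoupling protein of brown fat, was at 20 and 24.5 CPM in wild type 1 and 2 and at most 0.176 CPM in any other library. No marker of either fat list was at 0 in all libraries. Results that touch genes of fat cells are therefore given with and without these libraries, a comparison chosen after seeing the data.

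The libraries also split by their most counted gene across both groups. Ttn, the gene for the sarcomere protein titin, led wild type 6 and 7 together with kidney disease 4, 5 and 7, and the mitochondrially encoded mt-Co1 led the other 10. The members followed this split inside each group. In wild type, 31 of 32 had a lower mean in the libraries led by Ttn, with a median log2 difference of -0.26, and in kidney disease 29 of 32 did, with a median of -0.18. Those differences are larger than the median of -0.07 between the groups. How many of all genes tested followed the split was not counted, so it is not shown to be particular to the members. Summed over the members, the level was 13000 to 14590 CPM in wild-type libraries led by Ttn and 15640 to 17340 CPM in those led by mt-Co1. In kidney disease the sums were 13710 to 14160 CPM and 15300 to 16160 CPM. Single libraries stood out in the same way. Wild type 7 was the lowest of its group for 26 of the 32 members, wild type 5 was the highest for 16, and kidney disease 6 was the highest of its group for 19 and the lowest for 5. With the leading gene as a covariate, 22 of 32 members had a change below 0 and the median was -0.03. In that fit 0 members were called, where 0.907% of all genes tested were called lower and 1.62% higher. Within the 10 libraries led by mt-Co1, 22 were below 0 and the median was -0.06. In both of these fits the same 7 members as with all libraries were lower at an unadjusted p below 0.05. The share of all genes at that threshold was not counted in them. Idh1 was higher at that threshold in both fits (log2 change 0.13 with the covariate and 0.16 within the mt-Co1-led libraries, edgeR adjusted p = 0.252 and 0.368). Slc25a13 was higher with the covariate (0.09, edgeR adjusted p = 0.26). The median change thus depended on how the split was treated, while the 7 genes with the smallest p kept their side of 0. The members varied together from library to library, and their counts are not 32 separate observations. What sets the libraries apart was not tested.

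Transcript levels per kilobase of exon covered a wide range. The length used was that of all annotated exons of a gene, not of the transcripts present, so comparisons between genes are approximate. The highest level was that of Idh2, the mitochondrial NADP-dependent isocitrate dehydrogenase, at 777 CPM per kilobase over all libraries. Ogdh followed at 577, Mdh1 at 474, Mdh2 at 304, Got1 at 268 and Cs at 233 CPM per kilobase. At the other end were the citrate carrier gene Slc25a1 at 4.13, the dicarboxylate carrier gene Slc25a10 at 3.99, the mitochondrial malic enzyme gene Me2 at 1.38 and Nnt at 0.70 CPM per kilobase. In 3 pairs of isoenzymes the levels per kilobase differed in opposite ways. The mitochondrial form was far above the cytosolic one for isocitrate dehydrogenase (Idh2 over Idh1, median ratio 51.4 per kilobase). It was below the cytosolic form for malate dehydrogenase (Mdh2 over Mdh1, 0.653) and for aspartate aminotransferase (Got2 over Got1, 0.449).

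**Figure D2:**
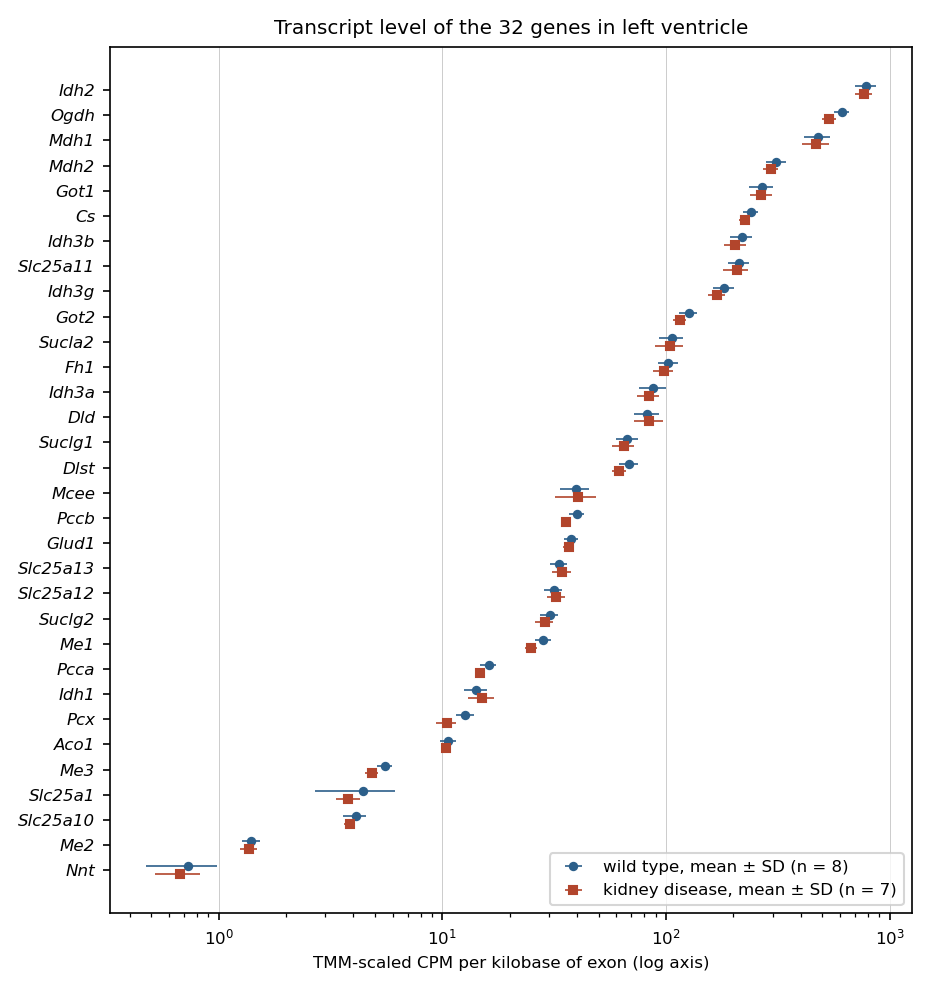
Mean level of each of the 32 genes in TMM-scaled CPM per kilobase of exon on a log axis, with the SD, for 8 wild-type (circles) and 7 kidney disease (squares) libraries, ordered by level. The order runs from Idh2 at 777 down to Nnt at 0.70 over all libraries, and on this scale the widest wild-type bars belong to Slc25a1 and Nnt.

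Carbon entry had the member with the smallest p. Pcx (ENSMUSG00000024892, chromosome 19, 4510472 to 4621752, plus strand, GRCm38) encodes pyruvate carboxylase, the mitochondrial enzyme that makes oxaloacetate from pyruvate. Rodent Pcx is known to use an upstream start in many tissues and a downstream start in liver and fat, and counts per gene add transcripts from both. The 120 bases before each of the starts that RefSeq annotates on GRCm38.p6 are shown because both kinds of transcript enter the value of this gene, with each CG dinucleotide in capitals. The upstream stretch is chr19:4510352-4510471 and the downstream one chr19:4594199-4594318, both on the plus strand and read 5′ to 3′.
Pcx upstream start: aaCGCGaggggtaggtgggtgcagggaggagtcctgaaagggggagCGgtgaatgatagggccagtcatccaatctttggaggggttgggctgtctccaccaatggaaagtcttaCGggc
Pcx downstream start: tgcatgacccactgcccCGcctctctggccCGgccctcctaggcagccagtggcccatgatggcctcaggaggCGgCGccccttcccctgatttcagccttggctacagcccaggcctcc
In the window from 250 bases before to 50 after each start, CG occurred 20 times at the upstream start, and 26.5% of the 32851 such windows in the table held as many or more. It occurred 5 times at the downstream start, and 62.0% of windows held as many or more. How the counts divide between these starts is not given by values per gene.

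Pcx was at 56.0, 51.4, 48.4, 53.0, 43.1, 42.5 and 53.4 CPM in kidney disease 1 to 7 (median 51.4). In wild type its lowest value was 54.7, its median 58.6 and its highest 70.6 CPM. All 7 kidney disease libraries lay below the wild-type mean and 6 lay below the lowest wild-type library, with only kidney disease 1 inside the wild-type range. The means were 49.7 ± 5.22 CPM (SD, n = 7) and 60.2 ± 5.46 CPM (SD, n = 8), a log2 change of -0.28 (SE 0.07, 95% interval -0.43 to -0.13, edgeR adjusted p = 0.0587). Both highest values were those of wild type 1 (70.6 CPM) and wild type 2 (65.7 CPM), the libraries with adipocyte transcripts. Without them the wild-type mean was 57.6 ± 2.38 CPM (SD, n = 6) and the log2 change was -0.21 (edgeR adjusted p = 0.203). By leading gene, its means in kidney disease were 49.8 CPM in libraries led by Ttn and 49.6 CPM in those led by mt-Co1. In wild type they were 55.3 and 61.8 CPM. It passed the threshold by DESeq2 (adjusted p = 0.0115) and, with edgeR, when wild type 7 was left out (adjusted p = 0.0379).

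Propionyl-CoA carboxylase, which starts the conversion of propionate carbon to succinyl-CoA, is built from the products of Pcca and Pccb. Pccb (ENSMUSG00000032527, chromosome 9, 100982032 to 101034898) ran from 97.7 to 123.1 CPM in wild type (median 110.4), against 91.6 to 107.6 CPM in kidney disease (median 99.1). All 7 kidney disease libraries were below the wild-type mean and 3 were below every wild-type library. Its log2 change was -0.16 (SE 0.06, edgeR adjusted p = 0.204). Pcca (ENSMUSG00000041650, chromosome 14, 122534324 to 122891100) ran from 71.8 to 89.8 CPM in wild type (median 86.3), against 71.6 to 79.4 CPM in kidney disease (median 77.5). Its kidney disease libraries were close together, whereas wild type 6 and 7, at 74.7 and 71.8 CPM, lay well below the other 6 wild-type libraries. The log2 change was -0.14 (SE 0.06, edgeR adjusted p = 0.312). The ratio of Pcca to Pccb within a library had a median of 0.793 in kidney disease and 0.769 in wild type, and the groups overlapped.

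The remaining genes of carbon entry had changes nearer to 0. Mcee, whose product methylmalonyl-CoA epimerase acts after propionyl-CoA carboxylase, was at 38.5 ± 7.89 CPM (SD, n = 7) in kidney disease and 37.8 ± 5.65 CPM (SD, n = 8) in wild type. Glud1, for glutamate dehydrogenase, which yields 2-oxoglutarate from glutamate, was at 154.9 ± 8.42 and 158.9 ± 11.7 CPM. The median log2 change of the 5 genes of carbon entry was -0.14, with 3 at an unadjusted p below 0.05.

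Malic enzymes convert malate to pyruvate. Me3 (ENSMUSG00000030621, chromosome 7, 89632392 to 89854359) encodes the mitochondrial NADP-dependent form. It was at 73.9, 69.4, 67.5, 67.3, 66.2, 79.7 and 70.4 CPM in kidney disease 1 to 7 (median 69.4). In wild type it ran from 69.5 to 89.4 CPM with a median of 82.3 CPM. Kidney disease 6 stood above the other kidney disease libraries, and 4 of the 7 were below every wild-type library. The log2 change was -0.20 (SE 0.06, 95% interval -0.32 to -0.08, edgeR adjusted p = 0.117), and it was again -0.20 without wild type 1 and 2. Like Pcx, it passed by DESeq2 (adjusted p = 0.0383) and with edgeR without wild type 7 (adjusted p = 0.0337).

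Me1 (ENSMUSG00000032418, chromosome 9, 86581371 to 86695953) encodes the cytosolic NADP-dependent malic enzyme, which is abundant in fat and liver. It ran from 97.8 to 121.2 CPM in wild type (median 111.9), against 88.9 to 105.3 CPM in kidney disease (median 95.3). The groups overlapped between 97.8 and 105.3 CPM, and the highest value was that of wild type 1. The log2 change was -0.18 (SE 0.06, edgeR adjusted p = 0.167), and it was -0.14 without wild type 1 and 2 (edgeR adjusted p = 0.396). Me2, for the mitochondrial NAD-dependent form, was low in both groups, at 9.90 ± 0.837 CPM (SD, n = 7) and 10.1 ± 0.945 CPM (SD, n = 8). On the log2 scale it differed by -0.03, with a 95% interval from -0.19 to 0.12.

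**Figure D3:**
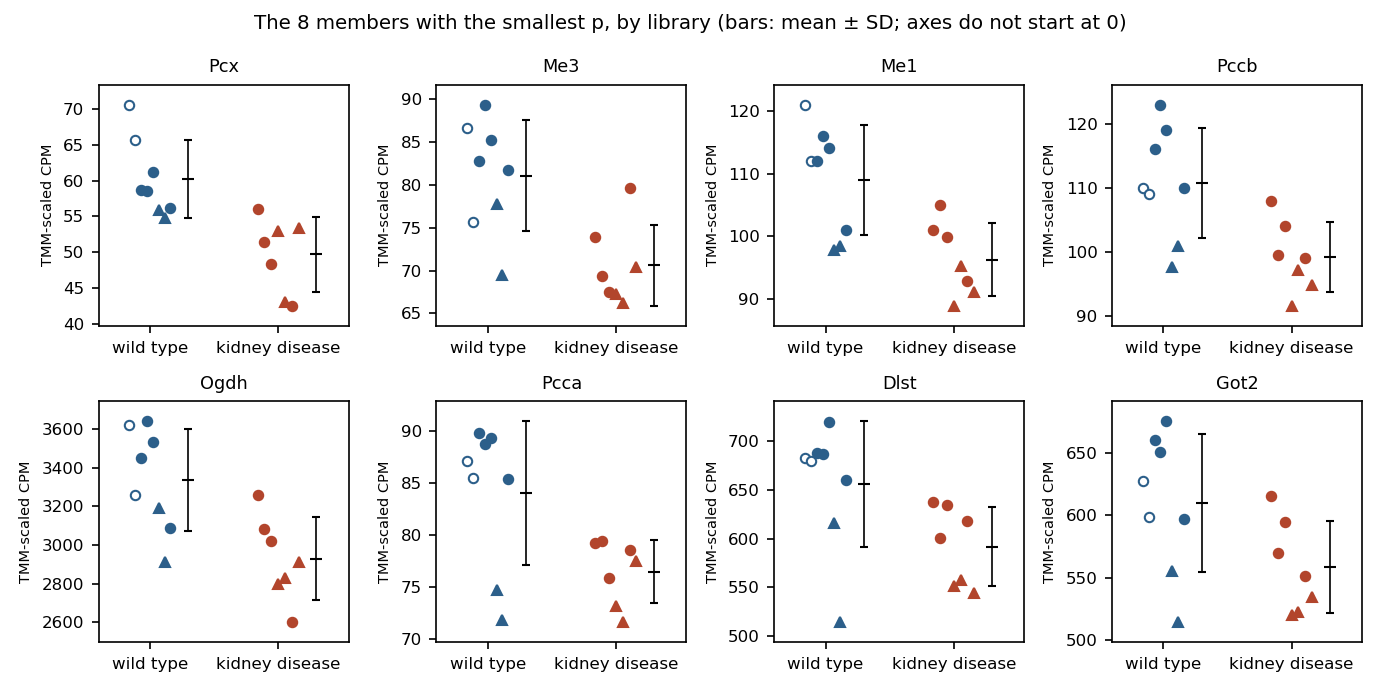
TMM-scaled CPM in each library of the 8 genes with the smallest p, with mean ± SD beside the points. The axes do not start at 0, triangles are libraries led by Ttn and open circles are wild type 1 and 2. In all 8 genes the wild-type triangles lie at or near the bottom of their group, and in Pcx the open circles are the 2 highest values.

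The 2-oxoglutarate dehydrogenase complex is the step of the cycle that makes succinyl-CoA. It is built from an E1 dehydrogenase (Ogdh), an E2 succinyltransferase (Dlst) and the E3 dihydrolipoamide dehydrogenase (Dld), which it shares with the pyruvate and branched-chain complexes. Ogdh (ENSMUSG00000020456, chromosome 11, 6291633 to 6356642) ran from 2905 to 3641 CPM in wild type (median 3352), against 2605 to 3264 CPM in kidney disease (median 2910). All 7 kidney disease libraries were below the wild-type mean, 3 of them below every wild-type library, and kidney disease 6 was the lowest. The log2 change was -0.19 (SE 0.07, edgeR adjusted p = 0.211).

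Dlst (ENSMUSG00000004789, chromosome 12, 85110833 to 85134845) ran from 513.7 to 719.8 CPM in wild type (median 681.1), against 544.0 to 637.4 CPM in kidney disease (median 600.9). The lowest value of all was that of wild type 7, while 6 of 8 wild-type libraries were above every kidney disease library. The log2 change was -0.15 (SE 0.07, edgeR adjusted p = 0.386). Dld showed no such order, at 310.9 ± 45.6 CPM (SD, n = 7) in kidney disease and 304.2 ± 38.1 CPM (SD, n = 8) in wild type. Its log2 change was 0.03, with a 95% interval from -0.16 to 0.23.

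A ratio of 2 genes within a library does not depend on the library's size. For this reason 10 ratios of partner genes were computed after the values of the single genes had been seen, so their p values are no independent support. The ratio of Dlst to Dld was 2.05 to 2.33 in wild type (median 2.15) and 1.57 to 2.11 in kidney disease (median 1.95). The groups overlapped between 2.05 and 2.11, and kidney disease 6, which had the highest Dld of all libraries (394 CPM), had the lowest ratio. The mean log2 ratio differed by -0.17, lower in kidney disease (two-sided exact permutation p = 0.0014, adjusted p = 0.014 over the 10 ratios). Within the libraries led by mt-Co1 the difference was -0.22, within those led by Ttn -0.16, and without wild type 1 and 2 -0.19. Without kidney disease 6 it was -0.13 (exact permutation, adjusted p = 0.0533). The ratio of Ogdh to Dld had medians of 10 and 11.2 and a log2 difference of -0.21 (exact permutation p = 0.028, adjusted p = 0.106). Its adjusted p was 0.0466 without kidney disease 7, and without kidney disease 6 the difference was -0.13 (exact permutation p = 0.0696). Both ratios share Dld and are not separate results.

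Succinyl-CoA ligase, which makes ATP or GTP as it releases succinate, differed little between the groups. Suclg1, for the alpha subunit, had a log2 change of -0.05 and was at 299.5 ± 34.5 CPM (SD, n = 7) in kidney disease against 310.3 ± 34.5 CPM (SD, n = 8). The beta subunit genes Sucla2 and Suclg2 had changes of -0.02 and -0.07. The level of Sucla2, for the ADP-forming enzyme, exceeded that of Suclg2, for the GDP-forming one, by a median factor of 3.52 per kilobase, and their ratio did not differ beyond its spread (log2 difference 0.05, exact permutation p = 0.404, adjusted p = 0.471).

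With all libraries, the genes for the first steps of the cycle did not pass, at an unadjusted p either. Without wild type 7, Cs and Idh3g were lower at an unadjusted p below 0.05, and Idh3g was so without kidney disease 6 too. Cs, for citrate synthase, an enzyme often used as a gauge of mitochondrial content, was at 1299 ± 70.0 CPM (SD, n = 7) in kidney disease and 1385 ± 110.7 CPM (SD, n = 8) in wild type (log2 change -0.09, edgeR adjusted p = 0.603). Aco1, the cytosolic aconitase that also acts as iron regulatory protein, was at 46.7 ± 2.28 and 47.9 ± 3.89 CPM. The NAD-dependent isocitrate dehydrogenase of the matrix has a catalytic subunit (Idh3a) and regulatory subunits (Idh3b and Idh3g). Their log2 changes were -0.07, -0.09 and -0.11, each within the spread of the libraries.

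Idh2 (ENSMUSG00000030541, chromosome 7, 80094846 to 80115392), the member with the highest level, was at 1766 to 2346 CPM in wild type (median 2012), against 1734 to 2190 CPM in kidney disease (median 2014). These medians are nearly equal, and the log2 change was -0.03, with a 95% interval from -0.19 to 0.13. Idh1, its cytosolic counterpart, was one of 5 members with a change above 0, at 41.6 ± 5.54 against 39.3 ± 4.71 CPM (log2 change 0.08, edgeR adjusted p = 0.780). The others were Dld, Mcee and the 2 aspartate-glutamate carrier genes Slc25a12 and Slc25a13.

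Fumarase and the malate dehydrogenases, which carry the cycle from fumarate to oxaloacetate, also stayed within their spread. Fh1 had a log2 change of -0.07, Mdh2 of -0.08 and the cytosolic Mdh1 of -0.02, with adjusted p of 0.74 to 0.97 (edgeR). Mdh1 varied more between libraries than between the groups, from 950.0 to 1441 CPM in wild type and from 1100 to 1590 CPM in kidney disease. The ratio of Mdh2 to Mdh1 had medians of 0.842 in kidney disease and 0.883 in wild type (log2 difference -0.06, exact permutation p = 0.182, adjusted p = 0.363).

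The malate-aspartate shuttle joins both malate dehydrogenases, both aspartate aminotransferases, the 2-oxoglutarate carrier (Slc25a11) and the aspartate-glutamate carriers. Got2 (ENSMUSG00000031672, chromosome 8, 95864134 to 95888547), the mitochondrial aminotransferase, ran from 514.2 to 676.5 CPM in wild type (median 613.6), against 520.2 to 615.5 CPM in kidney disease (median 551.1). Wild type 7 was the lowest library of all, and 6 of the 7 kidney disease libraries were below the wild-type mean. On the log2 scale it differed by -0.13 (SE 0.07, 95% interval -0.26 to 0.01, edgeR adjusted p = 0.444). Got2 was lower at an unadjusted p below 0.05 by DESeq2 and with upper-quartile scaling. It was so too without kidney disease 1, wild type 6 or wild type 7, and not in the other fits. Got1, the cytosolic enzyme, had nearly equal means in the groups, 679.2 and 680.1 CPM. The ratio of Got2 to Got1 had a median of 0.840 in kidney disease and 0.891 in wild type (log2 difference -0.13, exact permutation p = 0.032, adjusted p = 0.106).

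The carriers of the shuttle had log2 changes of -0.04 (Slc25a11), 0.04 (Slc25a12) and 0.05 (Slc25a13). Slc25a12 and Slc25a13 encode the carriers aralar and citrin. The ratio of their CPM had a median of 1.79 in kidney disease and 1.82 in wild type. Per kilobase of annotated exon (7342 and 3798 bases) the median ratio was 0.928, so which gene appears higher depends on these lengths. The groups differed in that ratio by less than its spread (log2 difference -0.01, exact permutation p = 0.824 before and after adjustment).

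**Figure D4:**
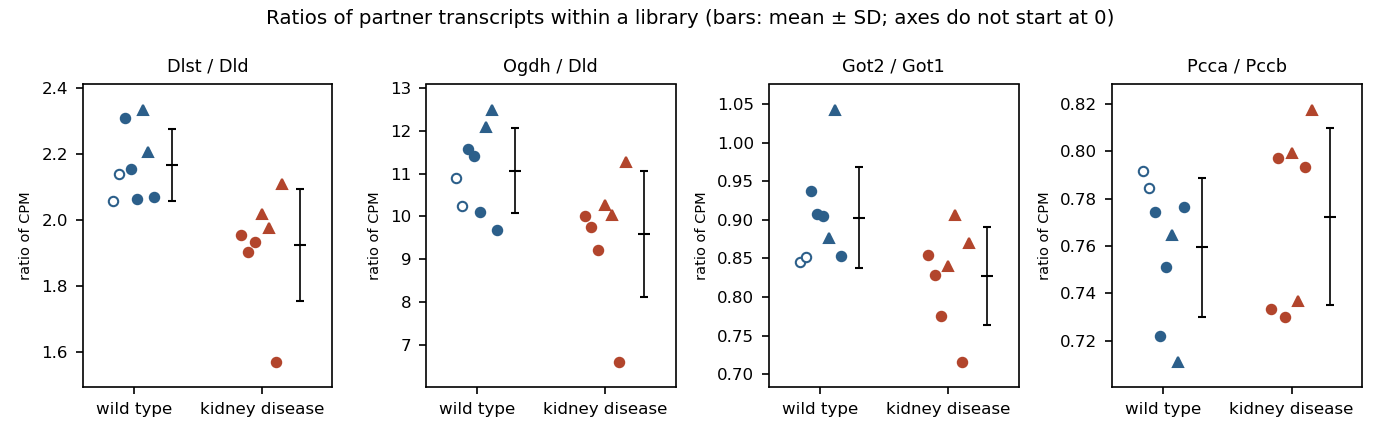
Ratio of CPM of partner genes in each library, with mean ± SD beside the points, for Dlst over Dld, Ogdh over Dld, Got2 over Got1 and Pcca over Pccb. The axes do not start at 0, triangles are libraries led by Ttn and open circles are wild type 1 and 2. Kidney disease 6 has the lowest Dlst to Dld ratio (1.57), and the groups overlap in all 4 ratios.

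The citrate carrier and the dicarboxylate carrier exchange citrate, malate, succinate and phosphate across the inner membrane, and the former supplies citrate for fat synthesis. Slc25a1 (ENSMUSG00000003528, chromosome 16, 17925223 to 17928219) was at 15.4 and 15.6 CPM in wild type 1 and 2, at 6.37 to 8.45 CPM in the other 6 wild-type libraries and at 6.55 to 9.86 CPM in kidney disease. With all libraries its log2 change was -0.22 (SE 0.18, edgeR adjusted p = 0.696). Without wild type 1 and 2 it was 0.12 (SE 0.09, edgeR adjusted p = 0.704), on the other side of 0. Slc25a10 had a log2 change of -0.08, and of -0.05 without those libraries. Cs was not raised in wild type 1 and 2 in this way: its wild-type mean was 1385 CPM with them and 1365 CPM without them. The part of fat cells in the values of these genes was not tested.

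**Figure D5:**
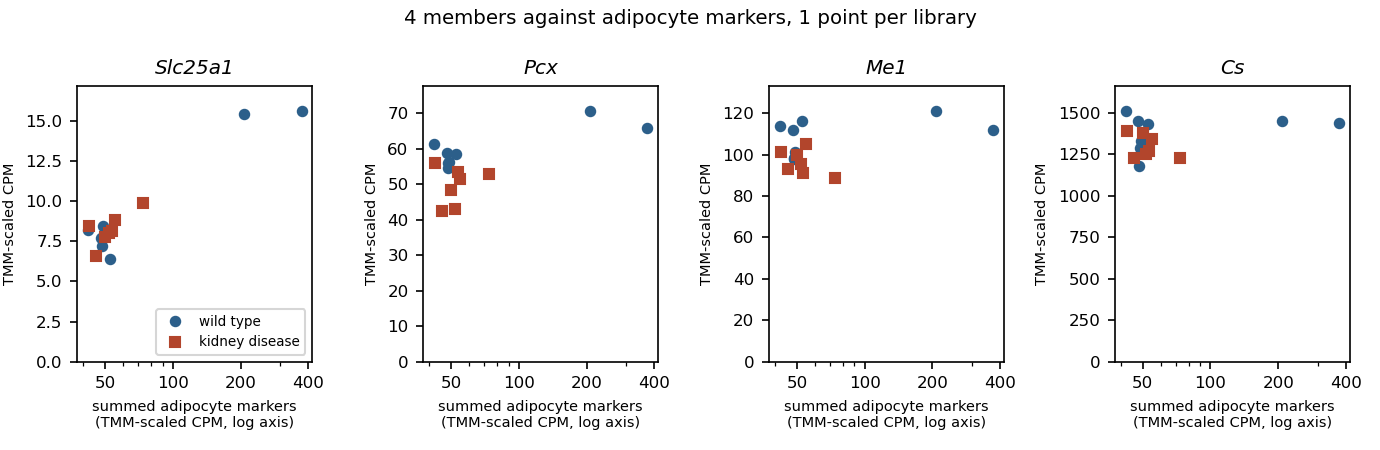
TMM-scaled CPM of Slc25a1, Pcx, Me1 and Cs in each library against the sum of 10 adipocyte markers on a log axis, for wild type (circles) and kidney disease (squares). The 2 wild-type points on the right are wild type 1 and 2, at marker sums of 207 and 373 CPM. They are far above the other points for Slc25a1 and within the range of the others for Cs.

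Nnt encodes the nicotinamide nucleotide transhydrogenase of the inner membrane, which makes NADPH from NADH with the proton gradient. The C57BL/6J strain is known to carry a deletion in this gene, and the labels name no strain. Nnt (ENSMUSG00000025453, chromosome 13, 119335448 to 119408997) had the lowest level of the members, at 4.27, 4.77, 4.07, 4.98, 5.27, 3.14 and 6.57 CPM in kidney disease 1 to 7. In wild type 1 to 8 it was at 4.46, 5.10, 4.25, 5.68, 3.51, 4.72, 9.21 and 4.05 CPM. Wild type 7 was the highest, and the other wild-type libraries lay inside the kidney disease range. The log2 change was -0.12 (SE 0.18, 95% interval -0.50 to 0.26, edgeR adjusted p = 0.868), and without wild type 7 it was 0.06. A second annotated gene of the same name shares 3339 exon bases (47.4% of the exons of Nnt) on the same strand and had 0 counts in every library. Reads that fall in the shared bases may not have been counted for either gene, so the level of Nnt is uncertain.

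For 8 other members, part of the exons overlaps a gene on the opposite strand, and whether the counting used strand is not given in the sources used here. The overlap was largest for Got2 (9.0% of its exon bases, shared with Gm45760), Slc25a11 (8.92%, shared with Rnf167) and Slc25a10 (6.6%, shared with Gm11788). It was 4.63% for Pcca, 3.89% for Me3, 1.95% for Mdh1, 0.780% for Me1 and 0.146% for Idh3b.

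Among 59 other genes of the same pathways, 54 were tested, and 3 were called lower and 0 higher. Over all genes tested, 0.473% were called lower and 0.811% higher. Of the 54, 35 had a change below 0, where 48.8% of all genes tested did, and their median was -0.05. The 13 other genes of the cycle, among them the subunits of succinate dehydrogenase, had 0 calls and a median of -0.03. The smallest p among them were those of Ogdhl, a second E1 of the 2-oxoglutarate dehydrogenase type (log2 change -0.27, edgeR adjusted p = 0.237), and Sdha (-0.14, edgeR adjusted p = 0.373). The 6 genes of pyruvate entry had 0 calls and a median of 0.05, with Dlat at -0.09 and Mpc1 at 0.08.

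The 3 genes that fell were D2hgdh, Slc25a42 and Mmab. D2hgdh encodes the mitochondrial enzyme that turns D-2-hydroxyglutarate into 2-oxoglutarate. It was at 27.2 to 31.7 CPM in wild type, against 19.0 to 26.3 CPM in kidney disease, without overlap. Of all genes tested, 0.179% had every kidney disease library below every wild-type library. The log2 change below is that of D2hgdh. Its log2 change was -0.34 (SE 0.06, edgeR adjusted p = 0.014). Within the libraries led by mt-Co1 its change was -0.38 (edgeR adjusted p = 0.0764), and it passed in each fit that left out 1 library.

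Slc25a42, the mitochondrial carrier of coenzyme A, was at 81.0 to 105.9 CPM in wild type, against 53.7 to 80.6 CPM in kidney disease, also without overlap. On the log2 scale it differed by -0.36 (SE 0.08, edgeR adjusted p = 0.031), and its call was lost in 7 of 15 fits that left out 1 library. They left out wild type 1, 3, 4, 5 or 6, or kidney disease 3 or 7. It was lost too without wild type 1 and 2 together (adjusted p = 0.0835). Slc25a35, a low-level carrier (4.86 CPM in kidney disease and 6.33 CPM in wild type), had a change of -0.38 and missed the threshold (edgeR adjusted p = 0.0511). Mmab makes the cobalamin cofactor used by methylmalonyl-CoA mutase, the enzyme that follows Mcee. It was at 40.3 to 46.4 CPM in wild type, against 30.1 to 42.5 CPM in kidney disease, with only kidney disease 1 inside the wild-type range. Its log2 change was -0.26 (SE 0.06, edgeR adjusted p = 0.045), and it kept its call when wild type 7 or kidney disease 1 was left out. The call was lost in the other 13 of 15 such fits and without wild type 1 and 2 together (adjusted p = 0.108). It was lost too without a filter (edgeR adjusted p = 0.0846) and with the replicate block (edgeR adjusted p = 0.118). Within the libraries led by mt-Co1 neither Slc25a42 nor Mmab passed, with log2 changes of -0.40 and -0.25. Gpt2, the mitochondrial alanine aminotransferase gene, had a change of -0.25 (edgeR adjusted p = 0.181).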

How the data were processed

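RNA of 8 wild-type and 7 mutant ventricles was sequenced after removal of ribosomal RNA. The submitters' processing notes name STAR 2.7.9a, featureCounts 2.0.3, Subread and bcl2fastq, and the build GRCm38. How the counting was set up, with strand or without, is not stated in the sources used here. For each gene and library the authors deposited counts, CPM (scaled by the library total) and FPKM (CPM divided by exon length). Only the deposited counts were analysed.

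Gene symbols were found for 55141 of 55487 identifiers. Counts were filtered with filterByExpr (minimum count 10), scaled by TMM and tested with the edgeR 4.0.16 quasi-likelihood test (R 4.3.3) on group alone, with Benjamini-Hochberg adjustment over 20718 genes and a threshold of 0.05. The test was checked only on simulated counts with changes larger than that of any member and with genes that varied independently. That check does not cover changes as small as those of the members. Members and lists were chosen with earlier results of these data known. All members are named by role, with values by library for the 8 with the smallest p, the highest and the lowest per kilobase, and Nnt, and for values that stand apart. Of the other pathway genes, those called and up to 2 per list by p are named; 1 gene that this rule names is not reported here. Each ratio was compared by a two-sided exact permutation test (6435 splits).

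Alternatives were RLE and upper-quartile scaling, removal of mitochondrially encoded genes, DESeq2 1.42.0, limma-voom (limma 3.58.1), no filter, a replicate block, the libraries led by mt-Co1, the leading gene as a covariate, and leaving out each library. Leaving out wild type 1 and 2 together was added after seeing the data. Libraries of a group differed by a chi-square per degree of freedom of at least 8.44, so none was a duplicate. The design text calls the samples biological replicates. The anaesthetic is isoflurane in the sample titles and ketamine/xylazine in the protocol. Promoter sequences are from RefSeq on GRCm38.p6, in which 29 of 32 members had a window.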

Additional observations from a re-analysis of the deposited data

Results flagged for a closer look

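A search for single libraries far from the rest of their group covered 70 groups of values, those of the members and of the called pathway genes, and found 5, where chance finds about 1 in 20, or 3.5. Wild type 7 had the lowest Aco1 of its group (39.6 CPM, next 46.8) and the lowest Got1 (493 CPM, next 633). The same library had the highest Nnt (9.21 CPM, next 5.68). Kidney disease 6 had the highest Idh3g of its group (533 CPM, next 460) and the lowest Slc25a42 (53.7 CPM, next 71.0). Both libraries were already the most extreme of their groups over the members as a whole, wild type 7 as the lowest for 26 and kidney disease 6 as the highest for 19 of the 32 genes.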

How the results depend on the processing

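Over 25 alternatives, 22 of the 32 members kept the direction of their change and 10 did not. The median of the members stayed below 0 in all of them, between -0.11 and -0.05 with 1 library left out. The members called lower numbered 0 in each alternative except DESeq2, with 2, and the fits that left out 1 library, with 0 to 2. Other pathway genes called lower numbered 3 with all libraries, 0 within the libraries led by mt-Co1, 1 without wild type 1 and 2, and 1 to 7 with 1 library left out, the highest without wild type 7. In none of the alternatives was a member called higher. At an unadjusted p below 0.05, 5 to 11 members were lower with 1 library left out, the highest without wild type 7. Without wild type 1 and 2, 5 were lower. With the replicate block 5 were lower too, and in both of these fits Dlst and Pcca dropped out. Without a filter 6 were lower, and Dlst dropped out.

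Slc25a1 turned from -0.22 to 0.12 without wild type 1 and 2, and Nnt from -0.12 to 0.058 without wild type 7. In the libraries led by mt-Co1 and with the leading gene as a covariate, the log2 changes were 0.0051 and 0.0088 for Idh2, 0.019 and 0.037 for Sucla2, 0.021 and 0.042 for Mdh1, 0.037 and 0.056 for Got1, and 0.0017 and 0.020 for Slc25a11. Without wild type 1 and 2 they were 8.17e-06 for Sucla2, 0.0031 for Mdh1 and 0.029 for Got1. Got1 was also at 0.0014 without mitochondrially encoded genes, 0.0013 by limma-voom and 0.0065 without a filter. The log2 difference of the ratio of Pcca to Pccb was -0.0011 in the libraries led by mt-Co1. With 1 library left out, changes that turned ran from -0.058 to 0.0013 for Idh2, -0.034 to 0.072 for Dld, -0.092 to 0.0064 for Sucla2, -0.086 to 0.0094 for Mdh1, -0.073 to 0.071 for Mcee, -0.058 to 0.0016 for Me2, -0.058 to 0.034 for Got1, -0.21 to 0.058 for Nnt and -0.024 to 0.0072 for the ratio of Slc25a12 to Slc25a13. The cause was not tested.

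With the replicate block, on the 7 numbers that both groups share, 66 genes were higher and 50 lower over all genes, against 168 and 98, and 0 members were called. Mdh1 was then at 0.0042 and Got1 at 0.012. The deviations of same-numbered libraries from their group means had correlations from -0.26 to 0.49, with 3 of 7 closest to their own number. These values do not settle whether the numbers mark pairs. The sample titles name no pairing, and the main fit does not use the numbers. Over all genes DESeq2 called 378 higher and 262 lower, and the libraries led by mt-Co1 alone gave 50 and 36. With the leading gene as a covariate 1.62% of genes were higher and 0.907% lower, against 0.811% and 0.473%.

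Counting error is small for most members at these depths. The lowest counts per library were 176 for Nnt, 351 for Slc25a1, 478 for Me2 and 653 for Slc25a10. For such genes counting error is a larger part of the spread. The spread between mice limits what can be seen: an interval that holds 0 does not show that a gene is the same in both groups.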
